A study of Mus musculus with 310 samples.

Results

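The Notch pathway was described here by 7 genes measured in single keratinocytes of mouse tail skin: the receptors Notch1, Notch2 and Notch3, the ligands Jag1 and Jag2, the DNA-binding effector Rbpj and the target gene Hes1. They are the Notch genes named for this description that have a row in the table of counts, 7 of its 14068 genes. No rule on their values picked them, but earlier results of these data were known when they were chosen. In the labels 310 samples, each counted here as 1 cell, fall into 2 groups. These are 38w (145 cells, replicates RepI and RepL) and 38wUW (165 cells, replicates RepM and RepN). All cells came from mice of a CBA C57BL/6 mixed strain that carried Lrig1-EGFP-ires-CreERT2 and Rosa26-fl/STOP/fl-tdTomato, and had hydroxytamoxifen applied once to the tail. The tdTomato label marks cells that expressed Lrig1, a gene of the hair follicle junctional zone, when Cre was switched on, and their progeny; cells without the label were not sorted. The time tag is 38w or 38wUW, with no other age in the labels, which neither spell out UW nor say which group had been wounded, so differences are given only as 38w against 38wUW.

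Notch signalling passes between touching cells. A ligand such as Jagged on one cell binds a Notch receptor on the next, the receptor is cut by an ADAM protease and then by gamma-secretase, and the freed intracellular domain joins RBPJ on DNA and recruits Mastermind-like coactivators. Without that domain RBPJ sits with corepressors, and HES1, a transcriptional repressor, is among the best known target genes. In the epidermis the pathway is known for promoting the exit of keratinocytes from the basal layer, and in the skin appendages for roles in the hair follicle and the sebaceous gland.

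The members lie apart in the genome (GRCm38, GENCODE annotation). Notch1 is at chr2:26457903-26516663 and Jag1 at chr2:137081456-137116644, both on the minus strand, while Notch2 is at chr3:98013527-98150361 and Rbpj at chr5:53466152-53657362, both on the plus strand. Jag2 is at chr12:112907819-112929776 on the minus strand, Hes1 at chr16:30064384-30067796 on the plus strand and Notch3 at chr17:32120820-32166852 on the minus strand. All are protein-coding genes. Of the 7, 6 had an entry among the RefSeq promoters (GRCm38.p6). Hes1 had none, so its promoter was not searched. For the 6, the 250 bases before each start were searched for TGGGAA, the core letters bound by RBPJ, on both strands. Of these 6, only Rbpj held it. Its first promoter entry, at chr5:53590096-53590395 on the plus strand, had a match on each strand. That entry lies inside the annotated span of Rbpj, before an internal start, and no entry at the beginning of that span was searched. The same holds for Notch1, whose entry, at chr2:26503773-26504072 on the minus strand, lies inside its annotated span. The 30 bases around each match are shown, with the motif or its complement in capitals:
Rbpj, chr5:53590185-53590214: aatgaaaaaggcTGGGAAcccgcggcgagc
Rbpj, chr5:53590269-53590298: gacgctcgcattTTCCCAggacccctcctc
The other Rbpj entry overlaps this one and holds the same second site. A match on either strand was found in 21.6% of all 32851 promoters and matches on both strands in 1.28%, so these matches are a description of the letters and not evidence of binding.

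Depth and plates set the precision. Reads per cell ranged from 11711 to 721564, and the 4 replicates summed to between 5472070 and 12946742 reads. No plate held cells of more than 1 replicate, so the effects of a plate and of a replicate cannot be told apart. RepI was spread over a pair of plates, C114 (53 cells) and C118 (17 cells). The median share of ribosomal protein reads per cell was 31.7% on C114 and 3.61% to 6.82% on the other 4 plates. The median mitochondrial share was 2.77% on C114 and 33.8% on C118. By replicate it was 4.28% (RepI) and 9.69% (RepL) in 38w and 14.6% (RepM) and 18.3% (RepN) in 38wUW, so it moved with the group, and its part in the group differences given here was not tested. The sort was checked with markers of other cells. Of 26 such markers 15 had a row; the summed level of the melanocyte markers was 7.96 to 15.1 CPM (counts scaled to a library of 1000000) in the 4 replicates, of the immune markers 1.31 to 2.93, of the fibroblast markers 8.42 to 62.7 and of the Merkel cell marker Krt8 0.517 to 5.14. The endothelial marker Pecam1 had reads in all 310 cells (1263 to 8773 CPM), while the other endothelial and mural markers, Kdr and Acta2, summed to 0.345 to 4.09 CPM. The basal keratin Krt14 had reads in 279 of 310 cells.

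The members were sparse. Notch1 had reads in 219 of 310 cells (70.6%) and Jag1 in 195 (62.9%). Hes1 followed with 165 cells (53.2%), Notch2 with 140 (45.2%), Rbpj with 122 (39.4%), Jag2 with 98 (31.6%) and Notch3 with 61 (19.7%). Where a member was read at all, the median was 2 to 6 reads per cell. Single cells held much of some totals: 1 cell gave 25.4% of all Rbpj reads, 1 gave 13.7% of all Jag1 reads and 1 gave 13.3% of all Notch1 reads. The fourth receptor, Notch4, had 12 reads in 9 cells.

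Levels can be compared between genes only per length of exon. Summed over the cells of a replicate, Hes1 stood highest at 31.6 ± 10.3 CPM per kb of exon (SD, n = 4 replicates) and Jag1 next at 20.8 ± 11.3. Notch1 reached 5.07 ± 1.13 CPM per kb, Notch2 4.26 ± 3.01, Rbpj 3.70 ± 2.20, Jag2 2.37 ± 1.499 and Notch3 0.768 ± 0.222. The ranges of all neighbours in this order overlapped between replicates. Among the receptors Notch1 lay above Notch3 in every replicate, and among the ligands Jag1 lay above Jag2 in every replicate.

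Members passed the test among cell classes and none passed between the groups, so the classes are described first. Each cell was placed with the set of marker genes on which it scored highest, if that score led the next by at least 0.25. This gave 84 cells closest to basal markers (hemidesmosome genes and Krt14, Krt5), 46 closest to interfollicular differentiated markers, 56 to infundibular and duct differentiated markers, 20 to sebocyte markers and 51 to bulge markers, and left 53 cells between classes. No Notch pathway gene was among the markers. A class is a range of scores, not a cell type: 47 of 310 cells lay within 0.1 of the margin. In the median cell of the basal class the mean marker z-score was 0.777 for basal genes and -0.284 to -0.256 for sebocyte, interfollicular and bulge genes (-0.493 for infundibular genes). In the median infundibular and duct cell it was 1.42 for its own genes and 0.320 for interfollicular genes. For the test, counts were summed per replicate and class where at least 5 cells were present, which gave 17 sums: 4 each for the basal, interfollicular and infundibular classes, 3 for bulge and 2 for sebocyte.

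Notch3 and Jag2 differed among the classes, in opposite directions (edgeR quasi-likelihood F-test across all genes with replicate as a block, adjusted p = 0.0190 for Notch3 and 0.0497 for Jag2). They were 2 of 7 members called, where 5.79% of all 10728 genes tested were called. Jag2 was read in 53 of 84 basal cells (63.1%, Wilson 95% interval 52.4 to 72.6) but in 3 of 102 cells of both differentiated classes. Notch3 was read in 0 of 84 basal cells, which allows a share of up to 3.57%, and in 40 of those 102 differentiated cells. These intervals and limits cover counting error only. They pool the cells of all 4 replicates as independent draws and leave out the spread between replicates.

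Over the 4 replicates, in the order RepI, RepL, RepM and RepN, the Jag2 level in basal cells was 60.9, 26.0, 50.8 and 13.5 CPM. In infundibular and duct cells it was 7.02 CPM in RepI and 0 in RepL, RepM and RepN, and in interfollicular differentiated cells 2.29 CPM in RepL and 0 in RepI, RepM and RepN. The basal range lay wholly above both differentiated ranges. Sebocyte-class cells, at 26.3 CPM in RepL and 29.3 in RepN, overlapped the basal range, and bulge cells, at 15.01 in RepL, 7.63 in RepM and 6.39 in RepN, lay at its foot or below.

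Notch3 had no read in the basal class of any replicate. In infundibular and duct cells its level was 11.9, 44.1, 15.1 and 9.86 CPM in RepI, RepL, RepM and RepN. In interfollicular differentiated cells it was 15.4, 13.7, 4.42 and 5.11 CPM in the same order, which overlapped the infundibular range. Bulge cells stood between, at 6.93 CPM in RepL, 2.08 in RepM and 2.13 in RepN. The sebocyte class had no Notch3 read in RepL and RepN. Its only positive cell was in RepM, whose 4 sebocyte-class cells were too few to enter the test.

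**Figure D1:**
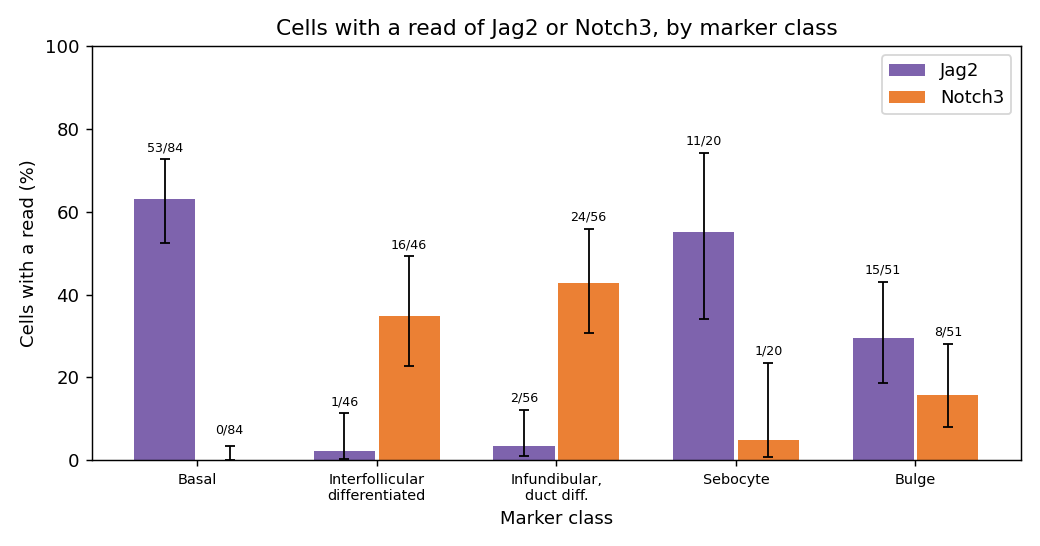
Share of cells with at least 1 read (%, vertical axis from 0) of the ligand Jag2 and the receptor Notch3 in each marker class (horizontal axis), over all 4 replicates; error bars are Wilson 95% intervals (for 0 of 84 cells, the 3.57% that a count of 0 allows) and the labels give cells with a read of cells in the class. Jag2 bars are tall in the basal (53 of 84) and sebocyte (11 of 20) classes and near 0 in both differentiated classes, while Notch3 is at 0 of 84 in basal cells and highest in infundibular and duct cells (24 of 56).

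The cell counts held without plate C114, a comparison added after the data were seen. Jag2 was then read in 38 of 61 basal cells, 1 of 34 interfollicular and 0 of 46 infundibular and duct cells. Notch3 was read in 0 of 61 basal, 10 of 34 interfollicular and 20 of 46 infundibular and duct cells. Depth was close between these classes: the median cell had 54888 reads in the basal class, 56945 in the infundibular and duct class and 68389 in the interfollicular class. With each cell thinned to 20000 reads, Jag2 was read in 37.5% of 72 basal cells and 1.89% of 53 infundibular and duct cells, and Notch3 in 0 of 72 and 30.2%. In interfollicular cells the thinned share was 2.33% of 43 cells for Jag2 and 9.30% for Notch3 (Wilson 95% interval 3.68 to 21.6, lowest replicate 0%), against 34.8% of 46 cells for Notch3 before thinning. The test itself was less firm than the counts. Without plate C114 the adjusted p rose to 0.0761 for Notch3 and 0.0710 for Jag2, and leaving out any 1 of the 4 replicates put both past 0.05 (edgeR; 0.0759 to 0.197 for Notch3 and 0.0728 to 0.277 for Jag2).

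The other receptors ran differently. Notch1, the main epidermal receptor, was highest on average in the sebocyte class, at 442 CPM in RepL and 83.2 in RepN, where every one of the 14 cells tested had a read. Interfollicular differentiated cells came next, at 125, 100.6, 26.5 and 279 CPM over RepI, RepL, RepM and RepN. The basal class, at 69.6, 39.2, 66.3 and 14.96 CPM in the same order, overlapped them. Here 1 cell set several sums: 88.7% of the Notch1 reads of interfollicular cells in RepN and 67.03% of those of sebocyte-class cells in RepL came from 1 cell each. The difference among classes did not pass (edgeR adjusted p = 0.273).

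Notch2 was low and even in basal cells, at 9.57, 12.4, 9.87 and 9.72 CPM over the 4 replicates in the same order. In infundibular and duct cells it was 56.2, 55.9, 150 and 142 CPM, above the basal level in all 4 replicates. Of those reads 1 cell gave 20%, 47.4%, 49.0% and 47.9% in the same order. The interfollicular class (10.5, 36.6, 92.9 and 12.4 CPM) and the bulge class (0 in RepL, 68.7 in RepM, 111 in RepN) reached from the basal level or below it to the infundibular level. In RepM 1 cell gave 83.3% of the interfollicular Notch2 reads and 1 gave 85.9% of the bulge reads. The F-test among all classes did not pass (edgeR adjusted p = 0.328). After thinning, Notch2 was read in 18.1% of basal cells (Wilson 95% interval 10.9 to 28.5) and 54.7% of infundibular and duct cells (41.5 to 67.3).

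Jag1, the other Jagged ligand, gave no order among classes. Its class means ran from 71.3 CPM in infundibular and duct cells to 140 in bulge cells, and every pair of neighbours overlapped (edgeR adjusted p = 0.819). The bulge class alone held 5.77 CPM in RepL, 214 in RepM and 202 in RepN.

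Hes1 was highest in the bulge class, at 110 CPM in RepL, 144 in RepM and 81.8 in RepN. All 3 values lay above every sum of the other classes in the test, the highest of which was 75.2 CPM, but 1 cell gave 78.9% of these reads in RepL and 1 gave 50% in RepN. The 4 sebocyte-class cells of RepM, too few for the test, stood at 91.4 CPM, above the bulge cells of RepN. The F-test did not pass (edgeR adjusted p = 0.443). The other class means lay close together, from 32.9 CPM in infundibular and duct cells to 51.3 in interfollicular cells. By share of cells the bulge class did not stand apart: after thinning, Hes1 was read in 46.7% of bulge and 46.5% of interfollicular cells. Rbpj was also highest on average in bulge cells, at 68.1 CPM in RepL, 63.8 in RepM and 181 in RepN. Its mean was lowest in basal cells, at 6.15, 38.1, 21.3 and 5.24 CPM over the 4 replicates. Interfollicular cells, at 20.2, 4.57, 81.8 and 0 CPM in the same order, lay below basal cells in RepL and RepN. After thinning, Rbpj was read in 13.9% of basal and 14.0% of interfollicular cells. The bulge range of Rbpj overlapped the infundibular range of 35.9 to 73.1 CPM (edgeR adjusted p = 0.487), and 1 cell gave 84.8% of the bulge reads of RepM.

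**Figure D2:**
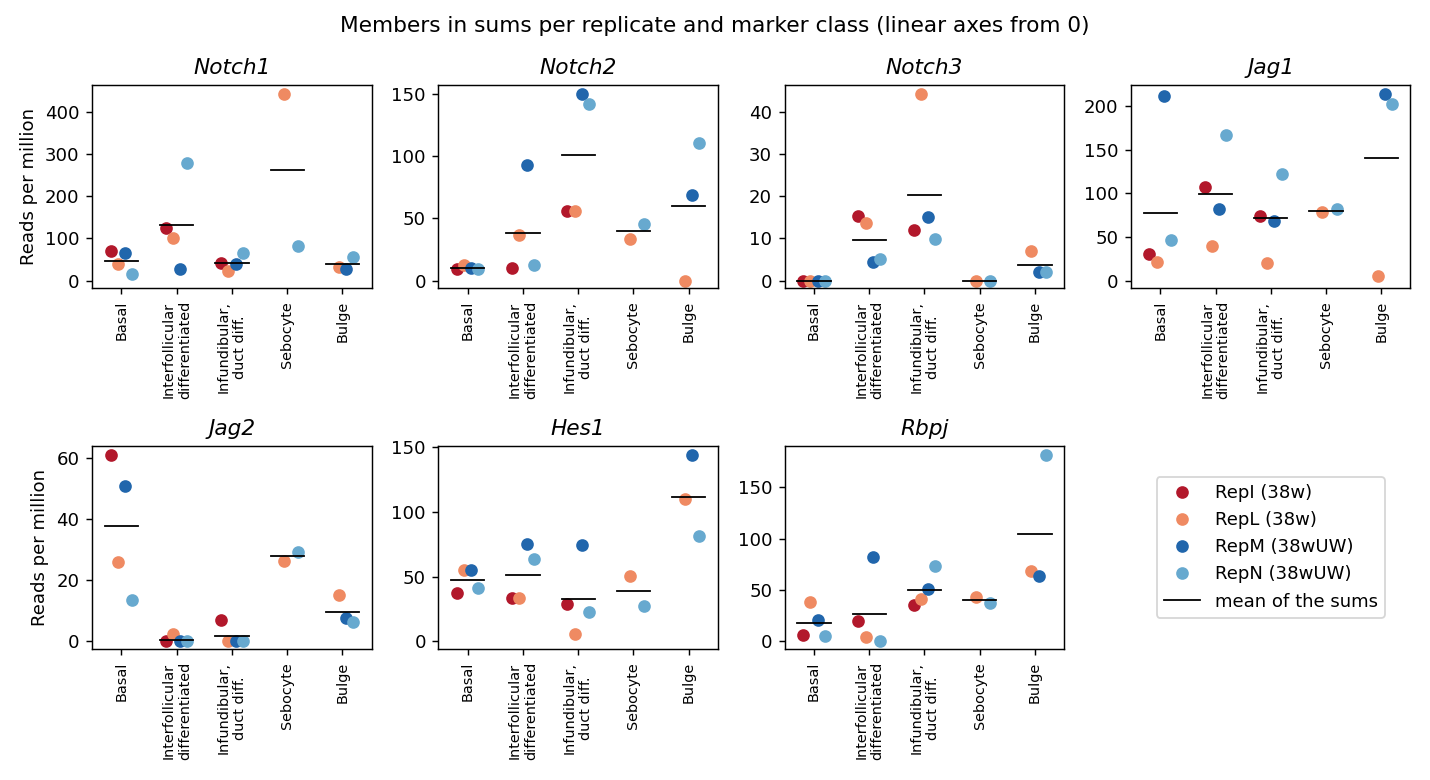
Level of each member (CPM, linear axes from 0, a separate scale per gene) in the sums per replicate and marker class used for the test; each point is 1 replicate and the black line is the mean of the sums. Notch3 is at 0 in all 4 basal sums, Jag2 is at 0 in 6 of the 8 sums of differentiated cells, Notch2 is low and tight in basal cells (9.57 to 12.4), and the 3 bulge sums of Hes1 (81.8 to 144) stand above the other sums shown, with 78.9% of the Hes1 reads of RepL bulge cells from 1 cell.

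Between the groups, no member was called. edgeR called 0 of 7 members and 0 of 11760 genes (0% of all genes tested), with 949 genes and 0 members at an unadjusted p under 0.05. DESeq2 called 68 genes and 0 members. With 2 replicates a group, a missed threshold does not show that levels were alike. The replicates of the groups did not overlap for 5 of the 7 members (Notch2, Jag1, Jag2, Hes1 and Rbpj), where 38.8% of all genes tested had replicates that did not overlap.

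Notch2 had the largest fitted difference. In 38w its level was 18.3 CPM (RepI) and 17.4 (RepL), and in 38wUW 76.8 (RepM) and 71.3 (RepN), close within each group and apart between them. The highest single cell gave 12.4%, 8.91%, 30.2% and 19.7% of the Notch2 reads of RepI, RepL, RepM and RepN. The fitted log2 fold change was -1.80 for 38w against 38wUW, with an SE of 0.87 (edgeR adjusted p = 0.625). It was -0.81 with every cell given equal weight and -0.87 with cells thinned to 20000 reads, so the difference was smaller where cells with many reads did not weigh more. On the plates of RepI, Notch2 was at 15.4 CPM on C114 and 31.98 on C118, both below the 38wUW plates. Infundibular and bulge cells, the classes with the highest mean Notch2 level, were 12 and 15 cells in RepI and RepL and 40 in each of RepM and RepN. By share of cells with a read after thinning, the bulge class (24.4%) stood below the interfollicular (32.6%) and sebocyte (26.3%) classes. What part the mix of classes has in the Notch2 difference was not tested. Within the basal class, a comparison added after the data were seen, the log2 fold change of Notch2 was 0.38, and within the interfollicular and the infundibular class it was -0.89 in each (edgeR adjusted p of 0.861 to 0.9997).

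Jag2 ran the other way, at 30.7 CPM (RepI) and 17.1 (RepL) in 38w and 11.5 (RepM) and 6.57 (RepN) in 38wUW. The fitted log2 value of 38w against 38wUW was 1.66 with an SE of 0.99 (edgeR adjusted p = 0.679). The plates of RepI split, with 36.2 CPM on C114 and 5.23 on C118, below both 38wUW plates, and without C114 the log2 fold change was 0.56. Basal cells, which held 64.5% of the Jag2 reads, were 27 and 29 in RepI and RepL and 17 and 11 in RepM and RepN. What part this has in the Jag2 difference was not tested. Within the basal class the log2 fold change was 0.78, with overlapping replicates.

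Jag1 showed how far 1 cell can carry a sum. In 38w it stood at 134 CPM (RepI) and 25.2 (RepL), in 38wUW at 171 (RepM) and 156 (RepN), which gave a fitted log2 ratio of -0.78 (SE 0.92, adjusted p = 0.830 by edgeR). Plate C118 of RepI stood at 438 CPM and plate C114 at 68.5, and 1 bulge-class cell gave 79.7% of the Jag1 reads of C118. The sign of the fitted difference rested on libraries: with RepL left out it was 0.051, with C114 left out 0.79 and with RepI left out -2.47.

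For the remaining members the group means differed by less than the replicates of 38wUW did from each other. Notch1 was at 86.5, 74.8, 49.2 and 78.2 CPM in RepI, RepL, RepM and RepN (log2 fold change 0.59, SE 0.84), and Notch3 at 7.92, 6.03, 7.13 and 3.78 (0.61, SE 1.13). Hes1 was at 48.5 and 51.9 CPM in 38w and 94.7 and 62.5 in 38wUW (-0.40, SE 0.84), and Rbpj at 22.0 and 35.2 against 44.9 and 86.8 (-0.96, SE 0.87). The edgeR adjusted p of these 4 members lay between 0.779 and 0.908. Leaving out libraries moved these values: Notch1 ran from 0.16 without C114 to 0.95 without RepN, and was 0.32 without RepM. Notch3 was 0.20 without RepN, 0.38 without RepI and 1.16 without RepM. Hes1 was -0.042 without RepM and -0.68 without RepN, and Rbpj -0.42 without RepN. In RepN, 40.4% of the Rbpj reads came from 1 cell. The Rbpj counts are uncertain, since 14 cells held values that were not whole and the annotation lists the processed pseudogenes Rbpj-ps1 and Rbpj-ps3, with which reads could be shared. Exons of Notch1 and Notch3 overlap genes on the opposite strand (0610009E02Rik and Gm13568; Gm17276) and exons of Notch2 the gene Gm42820 on the same strand, and the library does not mark strand.

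**Figure D3:**
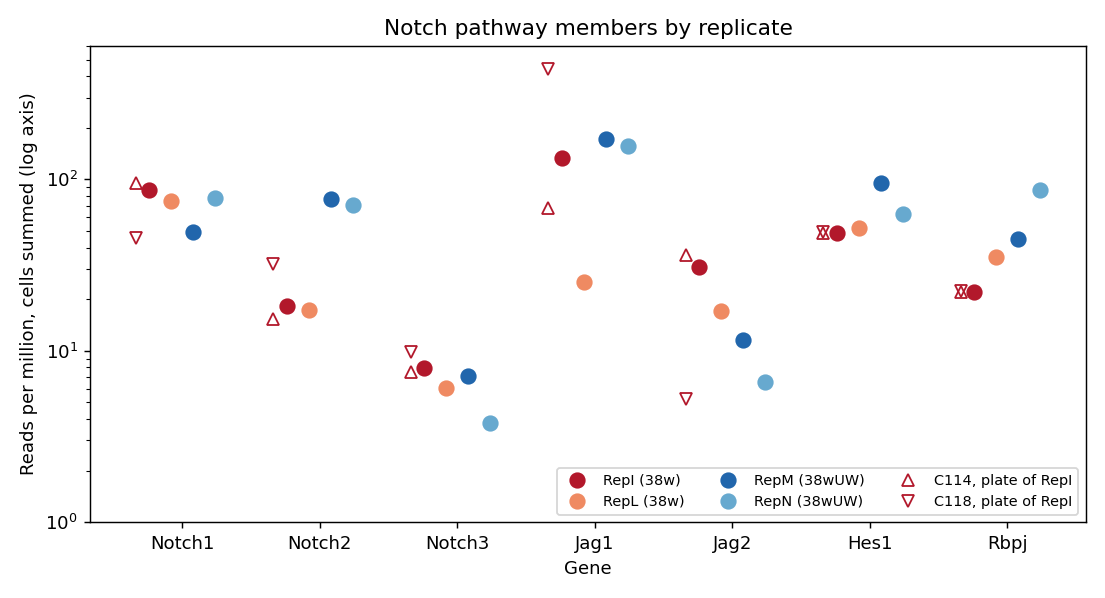
Level of each member (CPM over the summed cells, log axis) in the 4 replicates, red for 38w and blue for 38wUW, with open triangles for the 2 plates of RepI. The groups stand apart for Notch2 (18.3 and 17.4 against 76.8 and 71.3), and the triangles are far apart for Jag1 (68.5 on C114 and 438 on C118) and Jag2 (36.2 and 5.23).

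**Figure D4:**
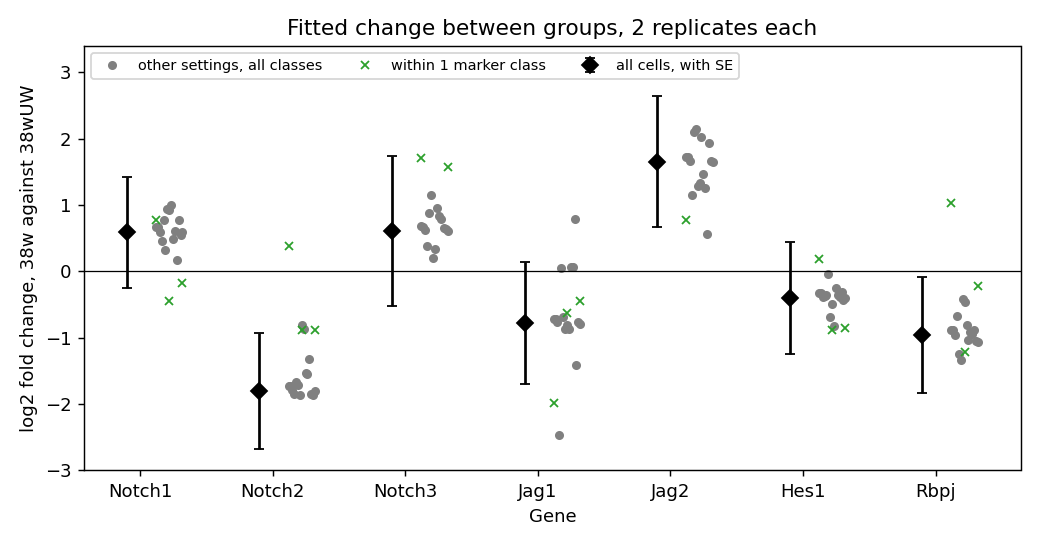
Fitted log2 fold change of 38w against 38wUW (vertical axis) for each member: the black diamond is the fit to all cells with its SE, grey points are the fits under other settings and green crosses the fits within 1 marker class. No adjusted p passed 0.05, points lie on both sides of 0 for Jag1 (-2.47 to 0.79), and for Notch2 the only point above 0 is the basal class (0.38).

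The share of cells with a read is less moved by single rich cells. With each cell thinned to 20000 reads (277 of 310 cells reached that depth), Jag1 was read in 41.2% (RepI) and 28.6% (RepL) of the 38w cells, against 65.6% (RepM) and 58.7% (RepN) of the 38wUW cells. The difference of -27.3 percentage points was the largest among the members. On plate C118 the share was 58.8%, close to the 38wUW plates, against 35.3% on C114. Notch2 was read in 19.1% and 22.9% of 38w cells against 37.5% and 34.7% of 38wUW cells, a difference of -15.1 points, and Rbpj in 16.2% and 24.3% against 29.7% and 40%, a difference of -14.6 points. Jag2 was read in 23.5% and 25.7% against 9.38% and 14.7%, a difference of 12.6 points, which was 3.78 points without plate C114 (exact permutation p = 1), the share on C118 being 5.88%. For these 4 members, and for Notch1 at 7.58 points, the replicates did not overlap, and an exact two-sided permutation test gave p = 0.3333, the smallest that 2 against 2 replicates allow. How many of all genes did not overlap on this measure was not counted, so it cannot be said whether the members stand out. Plate C114 decided part of this: without it Notch1 turned to -1.98 points (exact permutation p = 1), Jag1 was at -18.4 points (exact permutation p = 0.667) with overlapping replicates, and Jag2 overlapped as given above. At 3 or more reads the Notch1 difference was 0.092 points. Hes1 (-12.1 points, exact permutation p = 0.667) and Notch3 (-0.24 points, exact permutation p = 1) overlapped. Without thinning the differences were -18.2 points for Jag1, -5.66 for Notch2, -9.00 for Rbpj and 6.70 for Jag2. The Notch2 replicates then overlapped, at 45.7% and 38.7% in 38w against 43.9% and 51.8% in 38wUW (exact permutation p = 0.667). With cells thinned to 40000 reads the differences were -9.22 points for Notch2 and 4.25 for Notch1 (exact permutation p = 0.667 for each).

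**Figure D5:**
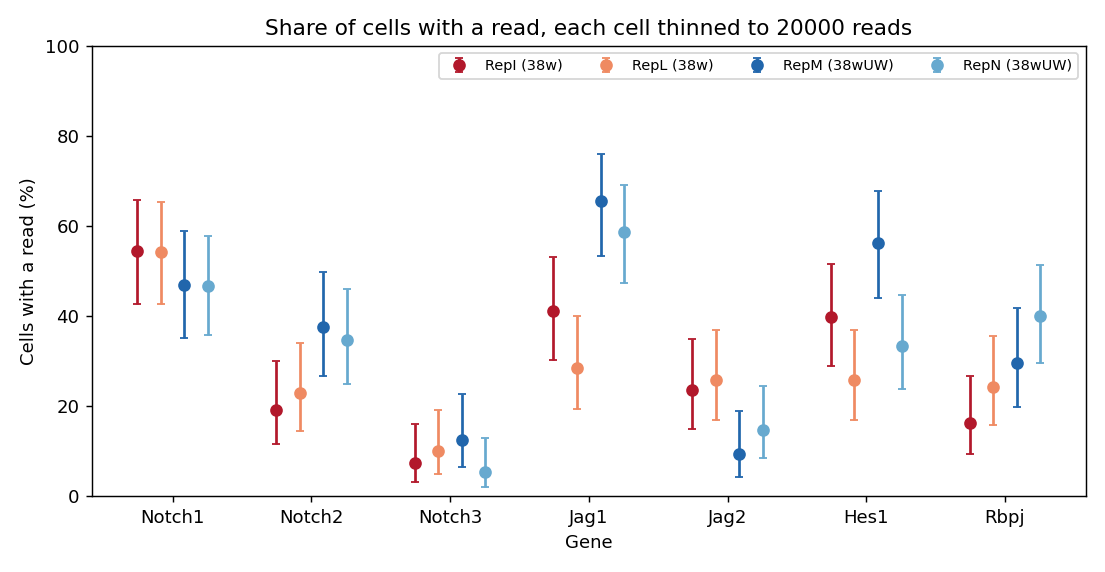
Share of cells with a read of each member (%, vertical axis from 0) in the 4 replicates after thinning each cell to 20000 reads, with Wilson 95% intervals that cover counting error only. The red points of 38w lie below the blue points of 38wUW for Jag1, Notch2 and Rbpj and above them for Jag2 and Notch1, and the points of the groups overlap for Notch3 and Hes1.

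Cells with reads of ligands, of receptors or of both were counted. After thinning, a receptor was read in 184 of 277 cells (66.4%), with 64.3% to 68.8% in the 4 replicates, and a Jagged ligand in 162 (58.5%). Both were read in 115 cells (41.5%) and neither in 46 (16.6%). Jag1 and Jag2 were read together in 23 cells (8.30%), and 53 cells (19.1%) held reads of 2 or more receptors. The counts that independent reads would give were not worked out, so these counts show no link between the genes. Notch1 was read more often in cells with a Jag1 read than in cells without, in each replicate: 67.9% against 45% in RepI, 80% against 44% in RepL, 50% against 40.9% in RepM and 52.3% against 38.7% in RepN. For Notch2 and Hes1 the share of Hes1 cells was lower among cells with a Notch2 read in all 4 replicates, by 1.54, 0.926, 16.7 and 15.7 percentage points. In RepI and RepL this rested on 5 of 13 and 4 of 16 cells with a Notch2 read. Notch1 was also read more often with a Jag2 read, by 2.40, 16.7, 3.45 and 9.23 points in the same order. Hes1 with a Notch1 read was mixed, at 31.5, -10.2, 13.3 and 7.14 points. Other pairs were counted and are not shown. Such pairings are descriptions over cells of the same replicate, in which cell class and RNA content vary too.

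Over the 17 sums per replicate and class, the genes with the pattern most like each member were found by Pearson correlation of log2(CPM + 1) centred within replicates, among 5317 genes of at least 20 CPM. Hes1 was most like Limd1 (r = 0.91), Slc38a2 (0.89) and Tnrc6a (0.88), and Notch2 most like Glrx (0.88), Zfand6 (0.87) and Mta3 (0.85). For Rbpj the leading genes were Hspa5, an endoplasmic reticulum chaperone, Stx7 and Sqstm1, an autophagy receptor (0.86 each). Notch1 was most like Grpel1 (0.83), Tmem218 (0.77) and Gpn1 (0.76), and Jag1 most like Cnot1 (0.78), Cwc15 (0.77) and Rnf170 (0.76). Jag2 and Notch3 were under the level needed. Between members the highest value was 0.67, for Notch1 and Jag1, and Hes1 and Notch2 gave -0.46. The sums share replicates, plates and depth, and no p is given.

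A list of 68 Notch pathway genes, members included, gives the setting; 61 had a row and 54 were tested between the groups. None was called in either direction (0% of all genes tested), 29 lay above 0 and 25 below, and the median log2 fold change was 0.16 beside 0.12 over all genes tested. At an unadjusted p under 0.05 there was 1 gene, Hes6, an inhibitor of HES1, at 6.68 and 3.45 CPM in RepI and RepL and 1.28 and 0.232 in RepM and RepN (fitted log2 ratio 3.06, SE 1.43, adjusted p = 0.617 by edgeR). In 23 of the 54 (42.6%) the replicates of the groups did not overlap, beside 38.8% of all genes. Of these, Hes6, Neurl1b, Lfng, Kat2a and Notch2 had the largest fitted differences. Neurl1b, a ubiquitin ligase of Notch ligands, stood at 1.44 and 3.10 CPM in 38w and 12.2 and 12.1 in 38wUW (log2 fold change -2.18, SE 1.17). Lfng, which adds sugars to the receptors, stood at 1.65 and 4.48 CPM against 1.10 and 0.772 (1.94, SE 1.36). Kat2a, an acetyltransferase, stood at 5.35 and 9.48 CPM against 2.56 and 2.16 (1.89, SE 1.20). The edgeR adjusted p of these 3 genes lay between 0.651 and 0.713.

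By role, 2 of 3 receptors, 3 of 4 ligands, 3 of 4 sugar-modifying enzymes, 7 of 10 genes of receptor cleavage, 4 of 9 of trafficking and turnover, 3 of 9 nuclear coactivators, 6 of 11 corepressors and 1 of 4 targets tested lay above 0. Over the list this was 53.7%, beside 53.4% of all genes tested. The sugar-modifying enzymes had a median log2 fold change of 1.55 and the coactivators of -0.47, with none called. The coactivator count and median include Rbpj, the DNA-binding effector.

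Among the marker classes 50 genes of the list were tested and 3 called (6% beside 5.79% of all genes): Notch3, Jag2 and Kat2b. Kat2b, an acetyltransferase that serves as a coactivator, was at 62.9 ± 45.8 CPM (SD, n = 4) in infundibular and duct cells and 0.0943 ± 0.189 (n = 4) in basal cells, and passed the test (edgeR adjusted p = 0.0210). Its highest basal sum was 0.377 CPM and its lowest infundibular and duct sum 17.6, so those ranges did not overlap. Whether class differences varied with the group was tested by an interaction term added after the data were seen. edgeR called 1 of 8070 genes (0.0124%) and no member, with 401 genes and 0 members at an unadjusted p under 0.05.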

How the data were processed

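Single cells were profiled with a modified Smart-seq2 protocol on unstranded libraries without molecular identifiers. The authors mapped reads with Salmon 0.13.1 to the Ensembl mouse transcriptome (GRCm38), and deposited the estimated counts of every gene in every cell without scaling them (3.60% of the values are fractional). Whether the study's filters on cells and genes had been applied is not stated. Cells are not replicates, so counts were summed per replicate, or per replicate and marker class, rounded and tested across all genes with edgeR 4.0.16 in R 4.3.3 (TMM, filterByExpr, quasi-likelihood F-test, Benjamini-Hochberg threshold 0.05); the SE of a log2 fold change was taken from its F value. Doublets were not called.

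Marker classes used mean z-scores of log counts scaled to 10000 per cell. Thinning to 20000 reads left out 33 cells. Wilson intervals are at 95%, and a count of 0 was taken to allow 3 counts. The labels do not tie the replicates to animals, so p-values measure the spread between these samples. The labels' batch tags disagree and entered alternatives only. The names of 15 cells carry an unexplained suffix, and 2 of those may be pools. Several of the others, all on plate C114, share a plate and well with a cell whose name has no suffix. They may be further libraries of the same cells, so the cell counts may hold some cells more than once. All were kept.

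The members, lists and tests were chosen with earlier results of these data known. Named pathway genes were those past the threshold in either test and, since none passed between groups, the 5 with the largest fitted difference and replicates that did not overlap. Alternatives were DESeq2 1.42.0, its size factors, no filter, thinning, equal weight per cell, batch blocks and leaving out replicates, plates or cells. Scripts were tested on simulated data.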

Additional observations from a re-analysis of the deposited data

How the results depend on the processing

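No member was called between groups under any of the 15 alternatives for that count. The number of all genes called between groups, 0 in the main test, was 68 by DESeq2, 1 without the filter on low counts, 1 and 4 with plates as units and either batch tag as a block, and 0 to 1215 on leaving out 1 replicate (169 without RepI and 1215 without RepL). The sign of the log2 fold change turned for Jag1 on leaving out a replicate (-2.47 to 0.051, the latter without RepL), without plate C114 (0.79) and with either batch tag as a block (0.073 and 0.059). Within the basal class it turned for Notch2 (0.38), Hes1 (0.18) and Rbpj (1.04), and for Notch1 within the interfollicular (-0.45) and the infundibular class (-0.18). It kept its sign in the other 113 of 122 alternative fits. The difference in the share of cells with a read turned for Notch1 without plate C114 (-1.98 points) and for Notch3 at 40000 reads (2.50), at 3 or more reads (0.689), without plate C118 (0.985) and on leaving out a replicate (-3.82 to 3.34); the other 64 of 70 kept their sign. 

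Among marker classes, 621 genes were called in the main test. The count was 1511 by the DESeq2 likelihood ratio test, 1012 without the filter, 251 without plate C114 and 237 to 347 on leaving out 1 replicate. The number of members called was 1 with no replicate block, 1 with a margin of 0, 1 with a margin of 0.5, and 0 with thinned cells, without plate C114 and on leaving out any replicate (0 to 0). For Notch3 the adjusted p was 0.0540 with a margin of 0, 0.0761 without plate C114 and 0.0759 to 0.197 on leaving out a replicate. With thinned cells Notch3 failed the filter on low counts. For Jag2 it was 0.0753 with no replicate block, 0.0842 with a margin of 0.5, 0.0724 with thinned cells, 0.0710 without plate C114 and 0.0728 to 0.277 on leaving out a replicate. DESeq2 called both. Fewer sums enter the fits that leave out a replicate or plate; for the other changes the cause was not tested. Notch3 had 200 reads in all. The groups share no replicate names; the batch tags, which they share, gave the 2 blocked fits above.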
